A study of Mus musculus with 9 samples.

Results

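Small leucine-rich proteoglycans (SLRPs) are secreted matrix proteins built around a row of leucine-rich repeats, and 10 of their genes were described here: Dcn, Bgn, Aspn, Ecm2, Lum, Fmod, Prelp, Kera, Omd and Ogn. They were taken by symbol, with no filter on their values, from the 24453 genes listed, and each symbol had 1 entry. The set was chosen with earlier results of these data known. Many SLRPs bind fibrillar collagen and influence how thick and how regularly spaced its fibrils become, and several also bind growth factors such as TGF-β or signal through cell surface receptors. In the liver, decorin, biglycan and lumican are long known as products of stellate cells and fibroblasts. The family is sorted into classes by sequence: Dcn, Bgn, Aspn and Ecm2 belong to class I, Lum, Fmod, Prelp, Kera and Omd to class II, and Ogn to class III.

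RNA sequencing compared hepatic stellate cells (HSCs), the retinoid-storing pericytes of the normal liver, with activated fibroblasts of 2 mouse fibrosis models, all on the C57BL/6J background, with 3 libraries per group. HSCs were taken from normal livers of untreated wild-type mice by density gradient. CCl4-fib were sorted as CD45- GFP+ cells from Col1a2-GFP Tg mice injected for 8 weeks with the hepatotoxin carbon tetrachloride (CCl4), 2 times per week. NASH-fib were sorted by the same gate from MC4R-KO mice carrying Col1a2-GFP, males that began a Western diet at 8 weeks of age and ate it for 20 weeks. GFP was driven by the collagen α2(I) promoter, so the gate enriches collagen-producing cells of any origin. HSCs differed from the fibroblasts in genotype, sorting method and disease at once, which cannot be told apart. NASH-fib and CCl4-fib differed in Mc4r genotype, diet, toxin and length of treatment at once, which cannot be told apart either. Each library held RNA of cells pooled from 3 to 5 mice, and in such bulk RNA a smaller number of cells of a type and less RNA per cell cannot be told apart.

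The unit, called the value below, is a gene's read count multiplied by 1 factor per library, so that every library summed to between 4471988 and 4471995. The libraries held 3071070 to 5634273 reads on genes, and 3 reads correspond to a value of 2.38 to 4.37. Differences were fitted by limma on log2(value + 1) for 13651 tested genes, and those with an adjusted p under 0.05 and a size of 1 or more on the log2 scale were called. Of the 10 members, 9 passed the filter on low values and Kera did not. The knocked-out gene Mc4r had no reads in HSCs and CCl4-fib and values of 5.44, 11.6 and 0 in NASH-fib, too few to check the labels. The HSC libraries had high Lrat, the enzyme that esterifies retinol for storage (7071 to 14894, against 95.4 to 458 in the fibroblasts), and the fibroblasts had high Acta2, the smooth muscle actin of activated fibroblasts (5300 to 8983, against 40.8 to 93.5 in HSCs).

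2 libraries stood apart before any group was compared, HSC replicate 2 and NASH-fib replicate 1. In each, transcripts rich in G and C were low against those poor in them. The tested genes of known GC content were divided by it into 3 sets of about the same size. The median deviation from the gene's average over all libraries was taken in the set richest in GC minus the poorest. On the log2 scale it was -1.29 in HSC replicate 2 and -1.74 in NASH-fib replicate 1. CCl4-fib replicates 1 to 3 had 0.99, 0.99 and 0.62, HSC replicates 1 and 3 had -0.27 and 0.39, and NASH-fib replicates 2 and 3 had 0.30 and -0.14. CCl4-fib thus lay above both other groups in this trend, and leaving out the 2 libraries does not remove that difference. The members ran from Aspn with 34.4% GC to Prelp with 53.8%. In HSC replicate 2, Bgn, Fmod and Prelp were 2.10, 3.56 and 1.82 below the mean of the other HSC libraries on the log2 scale, and in NASH-fib replicate 1 they were 1.93, 1.82 and 2.28 below the mean of their group. Dcn, Lum, Ecm2, Omd and Ogn, all under 43% GC, were 0.45 to 1.25 higher than the other libraries of the group in HSC replicate 2 and 0.62 to 1.60 higher in NASH-fib replicate 1. Aspn was 2.65 lower in HSC replicate 2, where 0, 2 and 9 reads are compared, and 1.27 higher in NASH-fib replicate 1. The calls of the members are therefore also given without these 2 libraries, as are the levels and list counts that moved by over 1.5 times or changed order.

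**Figure D1:**
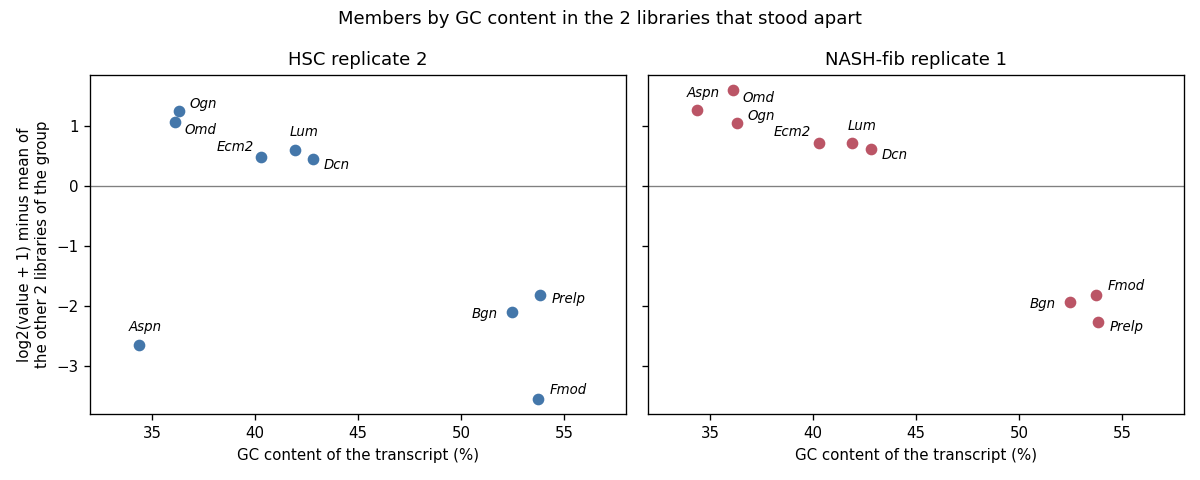
Difference of each tested member from the other 2 libraries of its group (vertical axis, log2(value + 1)) against the GC content of its transcript (horizontal axis, percent), in HSC replicate 2 (left) and NASH-fib replicate 1 (right). Bgn, Fmod and Prelp lie below 0 in both panels, while Dcn, Lum, Ecm2, Omd and Ogn lie above it.

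Of the 10 genes, 9 lie in 3 clusters (members within 500 kb of each other, coordinates of mm10). Ecm2 (NM_001012324), Aspn (NM_025711), Omd (NM_012050) and Ogn (NM_008760) follow each other on the plus strand of chromosome 13, within 119.7 kb at chr13:49504810-49624500. Dcn (NM_001190451), Lum (NM_008524) and Kera (NM_008438) lie on the plus strand of chromosome 10 within 134.2 kb, at chr10:97479500-97613688. Prelp (NM_054077, minus strand) and Fmod (NM_021355, plus strand) share 138.0 kb of chromosome 1, at chr1:133910304-134048277, and Bgn (NM_007542) stands alone on the X chromosome at chrX:73483601-73495936. The 4 genes of chromosome 13 all lie inside the span of Cenpp, a kinetochore gene of the opposite strand, and Prelp overlaps the antisense gene Gm15851. Reads of both strands were counted, so overlapping exons could share reads. Cenpp itself had values of at most 17.2 in any library.

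The 3 members called higher in NASH-fib than in CCl4-fib all lie in the chromosome 13 cluster. Its 4 genes also have the lowest GC content of the members (34.4% to 40.3%). The 250 bases before the annotated start of each of them are printed below, 5′ to 3′ on the plus strand, from RefSeq on GRCm38.p6. Such promoters were found for 8 of the 10 members. The stretches are chr13:49504560-49504809 for Ecm2, chr13:49544193-49544442 for Aspn, chr13:49582212-49582461 for Omd and chr13:49607765-49608014 for Ogn. The RefSeq start of Omd lies 285 bases and that of Ogn 56 bases from the start in the expression table. Capitals mark matches to a TATA box (TATAAA, either strand) or an E-box (CANNTG).
Ecm2: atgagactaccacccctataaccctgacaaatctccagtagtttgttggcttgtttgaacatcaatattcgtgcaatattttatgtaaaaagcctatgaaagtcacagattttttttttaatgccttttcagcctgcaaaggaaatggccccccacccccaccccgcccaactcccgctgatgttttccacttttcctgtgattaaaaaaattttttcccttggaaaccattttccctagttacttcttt
Aspn: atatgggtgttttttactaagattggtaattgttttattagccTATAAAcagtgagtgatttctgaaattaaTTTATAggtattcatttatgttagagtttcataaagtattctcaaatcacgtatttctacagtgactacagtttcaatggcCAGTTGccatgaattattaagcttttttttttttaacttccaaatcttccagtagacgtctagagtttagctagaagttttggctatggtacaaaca
Omd: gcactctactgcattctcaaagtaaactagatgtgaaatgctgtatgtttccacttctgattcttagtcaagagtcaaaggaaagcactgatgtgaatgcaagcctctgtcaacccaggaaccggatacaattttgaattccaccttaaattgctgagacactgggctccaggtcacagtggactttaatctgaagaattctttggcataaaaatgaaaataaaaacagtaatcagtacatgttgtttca
Ogn: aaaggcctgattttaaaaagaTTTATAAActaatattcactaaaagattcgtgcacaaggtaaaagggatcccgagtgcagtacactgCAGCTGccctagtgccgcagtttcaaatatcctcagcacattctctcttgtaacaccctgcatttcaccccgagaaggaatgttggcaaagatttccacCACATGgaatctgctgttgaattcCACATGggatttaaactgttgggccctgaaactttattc

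Between 250 bases before and 50 after the start, Aspn had TATA box matches at -207 and -178 and Ogn had overlapping ones at -229 and -227, and Ecm2 and Omd had no match to it. Of all 32851 promoters of that length, 13.6% held TATAAA. E-box matches, present in 72.3% of all promoters, were found at -97 and 12 in Aspn and at -162, -63, -39 and 43 in Ogn. The letters GGAATG, bound by TEAD factors (14.7% of promoters), occurred in Ogn alone of the 4, at -86. None of the 4 held the letters of an AP-1 site (TGANTCA, 7.8%), of the SMAD element GTCTAGAC (0.2%) or of its shorter form CAGAC (49.6%), or a CArG box (1.6%). All were searched on both strands.

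Levels of different genes were set side by side only as value per kb of transcript. In HSCs the order was Dcn (10478 ± 2071, SD, n = 3), Lum (5854 ± 1520), Bgn (5121 ± 3061), Prelp (2817 ± 1592), Ogn (384 ± 209), Ecm2 (80.1 ± 21.5), Omd (34.7 ± 17.0), Fmod (15.5 ± 13.4) and Aspn (1.87 ± 2.42), with Kera at 0. The libraries of Lum, Bgn and Prelp overlapped from one to the next, as did those of Omd, Fmod and Aspn. In CCl4-fib, Dcn (5642 ± 488), Bgn (4906 ± 609) and Lum (4635 ± 526) overlapped at the top, Ogn (1350 ± 327) came next, and Prelp (768 ± 182) and Aspn (668 ± 311) followed and overlapped. In NASH-fib, Ogn (4302 ± 1993) came after Dcn (7126 ± 1906) and Lum (5040 ± 1536), ahead of Bgn (4145 ± 2342) and Aspn (2089 ± 1157), and each of these overlapped with its neighbour in the order. Fmod (524 ± 285), Ecm2 (337 ± 110) and Omd (297 ± 208) followed Prelp (1619 ± 1075) there, and Kera was last in each group. The order moved without the 2 libraries. In NASH-fib it became Dcn (6040), Bgn (5497), Lum (4153), Ogn (3190), Prelp (2204) and Aspn (1426), as means of 2 libraries, so that Ogn fell behind Bgn and Aspn behind Prelp. In HSCs, Bgn (6880) then preceded Lum (4981). Omd in NASH-fib fell to 178 and kept its place.

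Together the members took 1.10% to 1.33% of the reads in HSCs, 0.871% to 0.960% in CCl4-fib and 1.24% to 1.44% in NASH-fib. Within that sum, the makeup differed between groups. The 4 genes of chromosome 13 made up 1.59% to 4.11% of the members' summed value in HSCs, 9.80% to 18.0% in CCl4-fib and 20.9% to 42.1% in NASH-fib, and the 3 ranges did not overlap. The upper ends in HSCs and NASH-fib were HSC replicate 2 and NASH-fib replicate 1, and the other 2 libraries of these groups had 1.59% to 1.73% and 20.9% to 24.6%. Dcn, Lum and Bgn made up 73.4% to 88.3%, 71.9% to 83.6% and 54.5% to 60.1%.

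**Figure D2:**
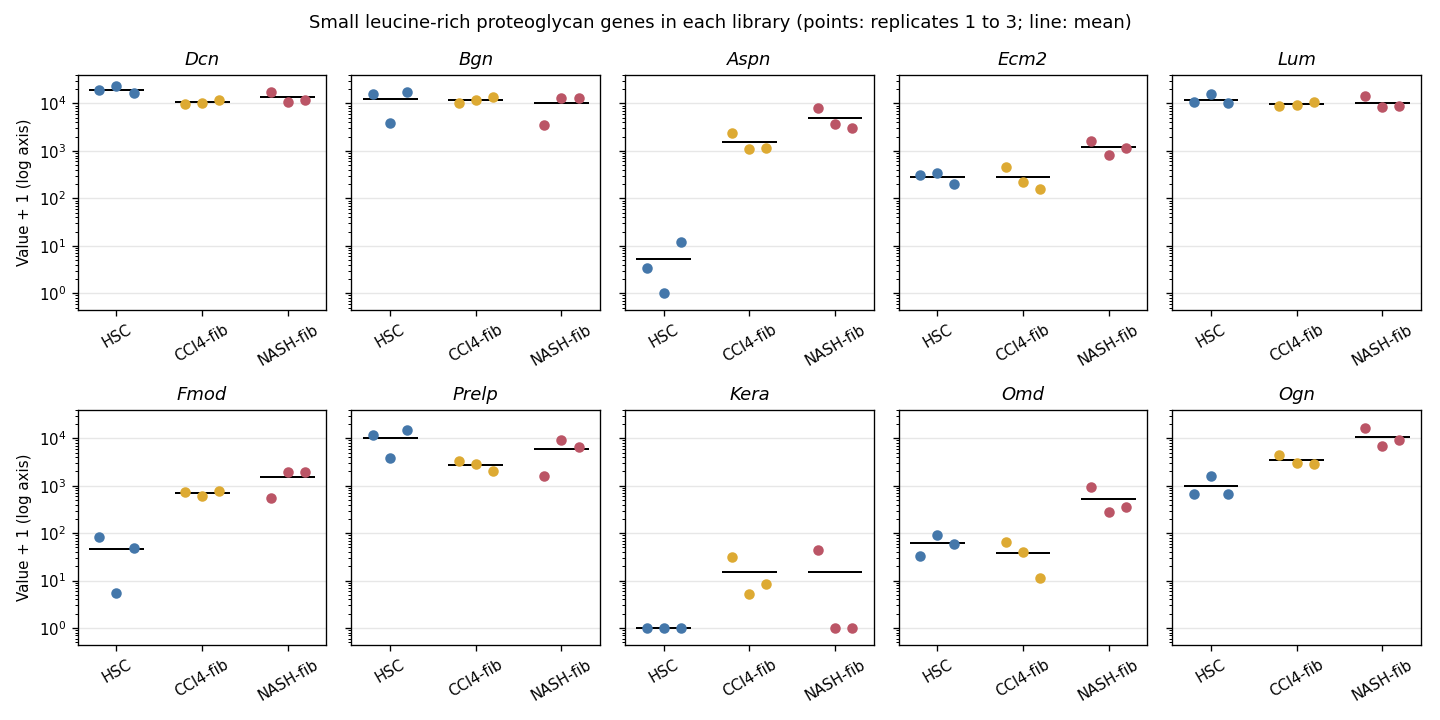
Value + 1 of each member (vertical axis, log scale, 1 panel per gene) in the 3 libraries of each group, with replicates 1 to 3 from left to right and a line at the mean. Aspn, Fmod and Ogn lie above HSCs in both fibroblast groups, Ecm2 and Omd do so in NASH-fib and overlap with HSCs in CCl4-fib, and the groups of Lum and Bgn overlap.

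In NASH-fib against HSCs, 5 of the 9 tested members were higher and none was lower (limma), while 8.23% of all tested genes were called higher and 4.3% lower. The 5 were Aspn, Fmod, Ogn, Omd and Ecm2, which include the whole chromosome 13 cluster, and in each of them all NASH-fib libraries lay above all HSC libraries, as held for 12.7% of all genes. The median log2 fold change of the 9 members was 2.05, against -0.02 over all tested genes. Dcn, Lum, Bgn and Prelp were not called. Without HSC replicate 2 and NASH-fib replicate 1, the same 5 genes were called, with 9.61% of all genes called higher and 5.03% lower.

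In CCl4-fib against HSCs, 3 of the 9 were higher and none was lower, beside 16.2% of all tested genes called higher and 11.7% lower. These were Aspn, Fmod and Ogn, whose libraries did not overlap (27.8% of all genes lay apart in this direction). The median of the 9 was -0.13, against 0.18 over all genes. Prelp and Dcn were lower in every CCl4-fib library than in any HSC library, as were 20.9% of genes, and were not called. Without the 2 libraries, Prelp was called lower as well, which made 3 higher and 1 lower, beside 19.4% and 12.4% of all genes.

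In NASH-fib against CCl4-fib, 3 of the 9 were higher, Omd, Ecm2 and Ogn, and none was lower, beside 4.97% of all tested genes called higher and 5.66% lower. All 3 lie in the chromosome 13 cluster, as does Aspn, whose libraries also lay apart in this direction (17.1% of all genes) and which was not called. The median of the 9 was 0.86, against -0.11 over all genes. Leaving out both libraries, Fmod and Prelp were called higher as well, 5 in all, where 5.47% of genes were called higher and 7.11% lower. After a correction for GC content, only Omd and Ecm2 were called, 2 in all. The median of the 9 was then 0.72, against -0.09 over all genes. In that setting 674 of 13566 tested genes were called higher and 742 lower. The 3 comparisons share their groups and are not independent of each other.

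**Figure D3:**
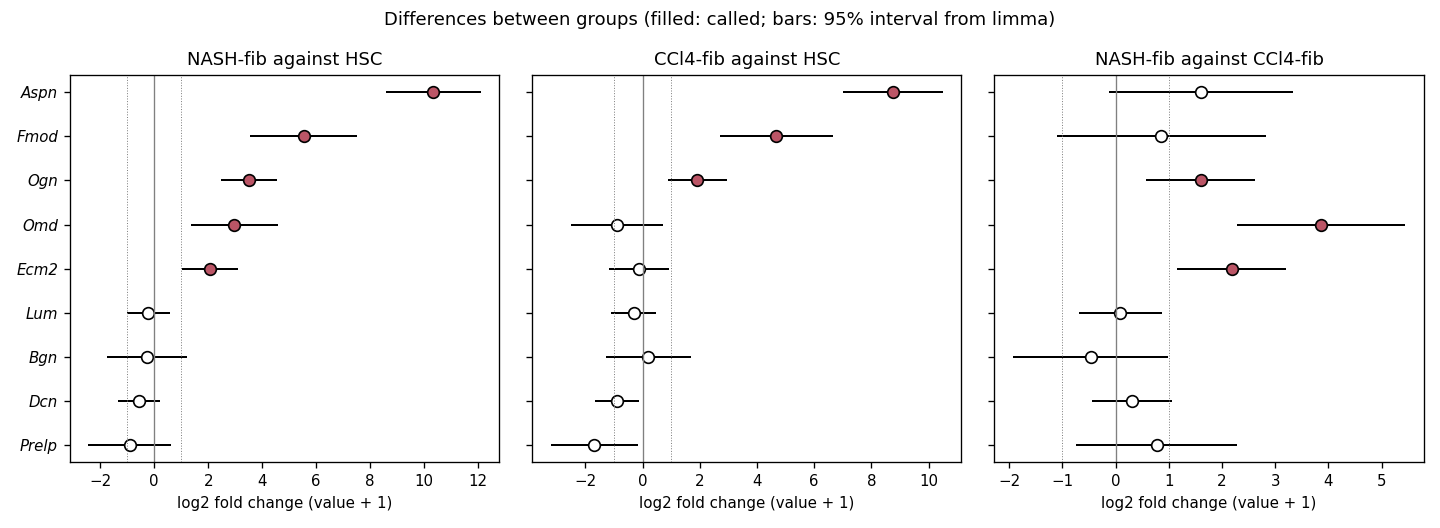
Log2 fold change on the log2(value + 1) scale (horizontal axis) with its 95% interval from limma for the 9 tested members, in each of the 3 comparisons (panels). Filled points are called. The intervals of Aspn and Fmod lie far to the right against HSCs, from 7.04 and 2.73 upwards, and those of Lum and Bgn span 0 in all 3 panels.

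Aspn, which encodes asporin, a class I SLRP that binds collagen and TGF-β1, showed the largest difference from HSCs among the members. HSC replicates 1 to 3 had values of 2.34, 0 and 10.8, those of CCl4-fib had 2405, 1124 and 1165, and those of NASH-fib had 7994, 3675 and 3002. It was close to absent in HSCs and the 3 groups did not overlap. The log2 fold change was 10.4 (SE 0.77, adjusted p = 3.06e-05) in NASH-fib and 8.75 (SE 0.77, adjusted p = 4.37e-05) in CCl4-fib, both against HSCs. Leaving out both libraries that stood apart, these were 9.05 (adjusted p = 8.13e-06) and 7.87 (adjusted p = 5.41e-06). As the HSC libraries held only 11 Aspn reads in all, the ratio of pooled read rates was 982 (exact 95% interval 549 to 1968, counting error only) for NASH-fib and 346 (193 to 693) for CCl4-fib. Between the fibroblast groups the difference was 1.60 (SE 0.77, adjusted p = 0.199), and it did not pass the test without the 2 libraries either (1.18, adjusted p = 0.154). After a correction for GC content it was 0.66 (adjusted p = 0.680).

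Ogn, which encodes osteoglycin (mimecan), a class III SLRP first purified from bone, was higher in CCl4-fib than in HSCs and higher again in NASH-fib. The HSC replicates had values of 658, 1584 and 675, those of CCl4-fib had 4368, 3013 and 2870, and those of NASH-fib had 16518, 6782 and 9365, with no overlap between groups. The highest HSC value was in replicate 2 and the highest NASH-fib value in replicate 1. Its log2 fold change was 3.51 (SE 0.45, adjusted p = 0.000526) in NASH-fib and 1.91 (SE 0.45, adjusted p = 0.0102) in CCl4-fib against HSCs, and 3.58 (adjusted p = 3.14e-05) and 2.33 (adjusted p = 0.000128) when both libraries were left out. The difference of 1.60 between NASH-fib and CCl4-fib (SE 0.45, adjusted p = 0.0484) was close to the threshold, and it passed in 9 of 21 alternative settings. It was 1.25 without the 2 libraries (adjusted p = 0.0166) and 0.72 after a correction for GC content (adjusted p = 0.163), which ended the call. The Ogn call in CCl4-fib against HSCs was lost without CCl4-fib replicate 1 (adjusted p = 0.0501).

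Omd, which encodes osteomodulin (osteoadherin), a keratan sulfate proteoglycan of bone matrix, was higher in NASH-fib than in both other groups. The HSC replicates had values of 32.7, 91.7 and 57.4, those of CCl4-fib had 62.7, 38.3 and 10.5, and those of NASH-fib had 935, 272 and 348. HSCs and CCl4-fib overlapped, and every NASH-fib library exceeded both. The log2 fold change of NASH-fib was 2.98 (SE 0.71, adjusted p = 0.018) against HSCs and 3.87 (SE 0.71, adjusted p = 0.0131) against CCl4-fib. Without the 2 libraries these were 2.80 (adjusted p = 0.0269) and 3.33 (adjusted p = 0.0148). After a correction for GC content they were 2.82 (adjusted p = 0.00863) and 2.98 (adjusted p = 0.0148), and both were still called. Without HSC replicate 1, the call against HSCs was lost (adjusted p = 0.0791).

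Ecm2, an extracellular matrix gene with leucine-rich repeats that lies next to Aspn, was also higher in NASH-fib than in both other groups. The HSC replicates had values of 311, 349 and 201, those of CCl4-fib had 465, 225 and 160, and those of NASH-fib had 1624, 837 and 1157. Again the first 2 groups overlapped and NASH-fib lay above both. The log2 fold change of NASH-fib was 2.05 (SE 0.45, adjusted p = 0.0124) against HSCs and 2.18 (SE 0.45, adjusted p = 0.0184) against CCl4-fib, and that of CCl4-fib against HSCs was -0.13 (95% interval -1.13 to 0.87). Both NASH-fib differences were still called without the 2 libraries (1.97, adjusted p = 0.0187, and 1.94, adjusted p = 0.0207). They were also called after a correction for GC content, at 1.88 (adjusted p = 0.00929) and 1.48 (adjusted p = 0.0428). The call against CCl4-fib was lost, at differences of 1.84 to 2.18, when CCl4-fib replicate 2, NASH-fib replicate 3 or CCl4-fib replicate 3 was absent.

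HSC replicate 2, CCl4-fib replicate 1 and NASH-fib replicate 1 carry the same date-like prefix in their labels, and 2 of these are the libraries that stood apart. Within that prefix, with 1 library per group and no test, NASH-fib exceeded HSCs on the log2(value + 1) scale by 3.38 for Ogn, 3.34 for Omd, 2.21 for Ecm2, 12.97 for Aspn and 6.70 for Fmod. Within the prefix shared by CCl4-fib replicate 3 and NASH-fib replicates 2 and 3, NASH-fib exceeded CCl4-fib by 4.75 for Omd, 2.61 for Ecm2, 1.51 for Aspn and 1.47 for Ogn. CCl4-fib replicate 2 and HSC replicate 3 share another prefix, and CCl4-fib was higher there by 6.58 for Aspn, 3.67 for Fmod and 2.16 for Ogn. The differences just listed are of called members and of Aspn, and all have the sign of the fit. Some differences that were not called have the opposite sign, among them, within the first prefix, those of NASH-fib against CCl4-fib for Fmod (-0.39, fitted 0.86) and Prelp (-1.05, fitted 0.77). Ecm2 in CCl4-fib against HSCs was 0.41 in the first and 0.16 in the last prefix (fitted -0.13).

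Fmod, which encodes fibromodulin, a class II SLRP that binds collagen I and affects fibril thickness, was high in both fibroblast groups. The HSC replicates had values of 80.7, 4.37 and 47.8, those of CCl4-fib had 730, 621 and 792, and those of NASH-fib had 556, 1971 and 1960. All 6 fibroblast libraries exceeded all HSC libraries, and NASH-fib replicate 1 lay below every CCl4-fib library. The log2 fold change was 5.54 (SE 0.88, adjusted p = 0.00187) in NASH-fib and 4.68 (SE 0.88, adjusted p = 0.00297) in CCl4-fib against HSCs. Without the 2 libraries these were 4.96 and 3.49 (adjusted p = 9.12e-06 and 2.13e-05). The difference between NASH-fib and CCl4-fib was 0.86 (SE 0.88, adjusted p = 0.543), and without the 2 libraries it was 1.47 and passed (adjusted p = 0.0145).

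Prelp, which encodes a class II SLRP that binds heparan sulfate and collagen, was the fourth most abundant member per kb in HSCs. The HSC replicates had values of 11817, 3755 and 14830, those of CCl4-fib had 3347, 2891 and 2053, and those of NASH-fib had 1611, 9217 and 6637. The low HSC library was replicate 2 and the low NASH-fib library replicate 1. Against HSCs the log2 difference was -1.68 in CCl4-fib (SE 0.68, adjusted p = 0.089) and -0.91 in NASH-fib (95% interval -2.41 to 0.58), and neither was called. Without the 2 libraries, Prelp fell by 2.29 on the log2 scale in CCl4-fib (adjusted p = 0.000182) and was 1.53 higher in NASH-fib than in CCl4-fib (adjusted p = 0.0104). The first of these was also called after a correction for GC content (adjusted p = 0.00158), and the second was not (1.30, adjusted p = 0.0727).

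Dcn, which encodes decorin, a chondroitin or dermatan sulfate proteoglycan that binds collagen fibrils and TGF-β, had the highest mean per kb in each group. Per kb its libraries overlapped with those of Bgn in CCl4-fib and of Lum in NASH-fib. The HSC replicates had values of 18795, 23916 and 16291, those of CCl4-fib had 9919, 10219 and 11635, and those of NASH-fib had 17452, 10761 and 11914. Every CCl4-fib library lay below every HSC library, and NASH-fib overlapped with both. The log2 difference was -0.88 (SE 0.33, adjusted p = 0.0719) in CCl4-fib and -0.57 (95% interval -1.30 to 0.16) in NASH-fib against HSCs, and neither was called. The first was -0.73 without the 2 libraries (adjusted p = 0.0199), under the size needed for a call.

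Lum, which encodes lumican, a keratan sulfate proteoglycan of collagen-rich tissues, measured 10627, 15731 and 9994 in the HSC replicates, 8806, 9140 and 10838 in those of CCl4-fib and 14103, 8548 and 8644 in those of NASH-fib. The 3 groups overlapped, with log2 differences of -0.31 (95% interval -1.08 to 0.45) in CCl4-fib and -0.23 (-0.99 to 0.54) in NASH-fib against HSCs, and of -0.11 (-0.56 to 0.34) and -0.26 (-0.76 to 0.23) when both libraries were left out. Bgn, which encodes biglycan, a class I relative of decorin that also acts as a ligand of toll-like receptors, measured 15885, 3869 and 17315 in the HSC replicates, 10465, 11660 and 13387 in those of CCl4-fib and 3475, 13261 and 13267 in those of NASH-fib. The lowest values were again those of HSC replicate 2 and NASH-fib replicate 1. Its log2 differences were 0.21 (-1.24 to 1.65) and -0.27 (-1.71 to 1.18) against HSCs, and without the 2 libraries they were -0.49 (-0.95 to -0.04, adjusted p = 0.089) and -0.32 (-0.82 to 0.18).

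The file header records a limit of 3 reads per position in the counting, which bears most on abundant genes. Dcn reached up to 8.75 reads per base of transcript, the fourth highest among all genes, and had over 3 reads per base in all 9 libraries. Lum (up to 5.49) did so in 9 libraries, Bgn (up to 6.17) in 7, Ogn (up to 4.80) in the 3 NASH-fib libraries and Prelp (up to 3.45) in 1. In the 6 fibroblast libraries, Dcn had 12015 to 12838 reads (CV 2.57%), although the total reads ran from 3289758 to 5634273 (CV 17.1%). Its value there, which is the reads rescaled to the total, had a CV of 23.3%. The reads of Lum ran from 8795 to 11360 (CV 9.40%) and those of its value had a CV of 21.7%. In HSCs, with 3071070 to 3825522 total reads, Dcn had 13626 to 16424 reads, more than in any fibroblast library. Dcn exceeded 6 reads per base, which is 3 on each strand, in all 9 libraries, so reads per base of the listed transcript are no direct measure of that limit. The reads of Ogn in the fibroblasts had a CV of 51.7%. The part of the limit in the values of Dcn, Lum, Bgn and Ogn was not tested.

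**Figure D4:**
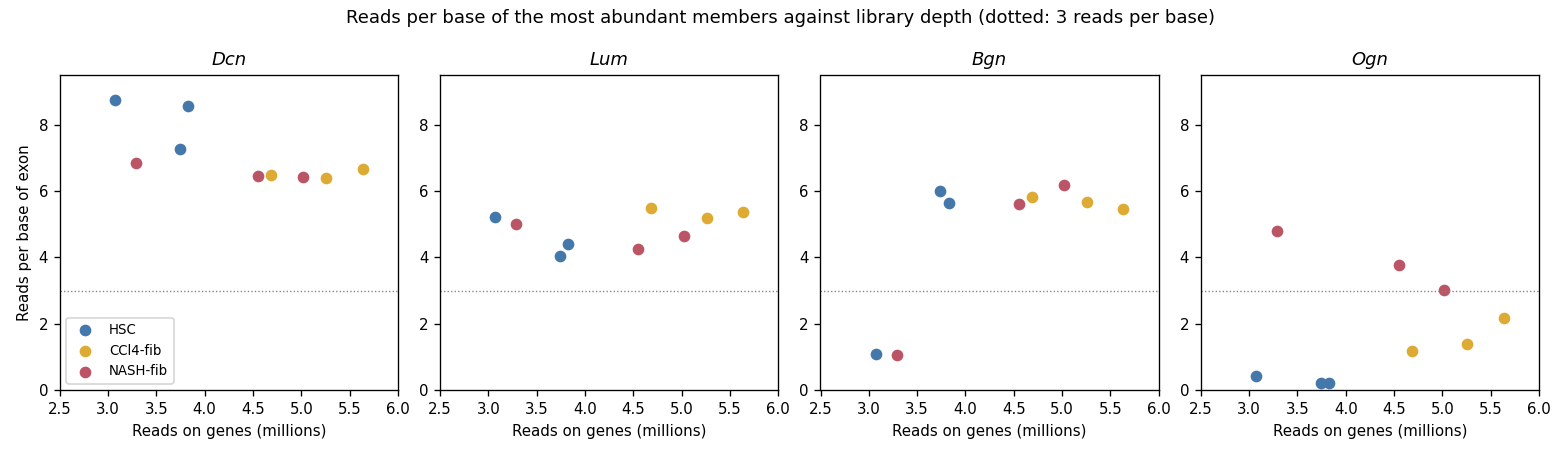
Reads per base of transcript (vertical axis) against the reads on all genes (horizontal axis, 3071070 to 5634273 reads) for Dcn, Lum, Bgn and Ogn, 1 point per library. Dcn lies between 6 and 7 in the 6 fibroblast libraries whatever their depth, and Bgn lies near 1 in HSC replicate 2 and NASH-fib replicate 1.

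Kera, which encodes keratocan, a keratan sulfate proteoglycan of the cornea, had 0 reads in all HSC libraries, 39, 5 and 8 reads in the CCl4-fib replicates and 31, 0 and 0 in those of NASH-fib. It was not tested. The mean value of CCl4-fib was at least 3.74-fold higher than that of 3 reads in HSCs, and was 1.55 times that floor without CCl4-fib replicate 1, while the NASH-fib mean, at least 3.68-fold higher, rests on replicate 1 alone. Epyc (epiphycan), a class III SLRP beyond Kera on chromosome 10, also had 0 reads in all HSC libraries. The CCl4-fib replicates had values of 108, 28.9 and 28.6 and those of NASH-fib 48.9, 18.7 and 33.4, at least 14.4-fold and 8.82-fold higher than 3 reads in HSCs, and it was called in both (adjusted p = 0.000269 and 0.000757). Without CCl4-fib replicate 1 the first of these bounds was 7.53-fold. Of the other SLRP genes, Podn and Tsku were tested and not called in any comparison, except for Tsku in NASH-fib against CCl4-fib when both libraries that stood apart were left out (-1.30, adjusted p = 0.0393), and Optc, Chad, Chadl, Nyx, Podnl1 and Nepn did not pass the filter.

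Next to the chromosome 13 cluster, Bicd2, Ippk, Nol8 and Iars were tested and Fgd3 and Cenpp were not. None of the 4 was called in any of the 3 comparisons. Ippk, an inositol phosphate kinase gene upstream of Ecm2, had a log2 difference of 2.21 between NASH-fib and CCl4-fib (adjusted p = 0.0549). On chromosome 1, Btg2, an antiproliferative gene, was higher in NASH-fib (4.20) and in CCl4-fib (3.98) than in HSCs, Chil1, which encodes a chitinase-like protein and had 2 reads in all HSC libraries together, was called higher in both, Atp2b4, a plasma membrane calcium pump gene, was 1.38 higher in NASH-fib, and Adora1 was not called. In NASH-fib against CCl4-fib, Chil1 was lower (-3.64, adjusted p = 0.0148), Atp2b4 was higher (1.24, adjusted p = 0.0411), and Btg2 and Adora1 were not called. Mir6903, Optc, Chit1 and Mybph on chromosome 1 and Mir3966, 4930473O22Rik, Gm10754, Ccer1 and 4930525C09Rik on chromosome 10 were not tested.

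**Figure D5:**
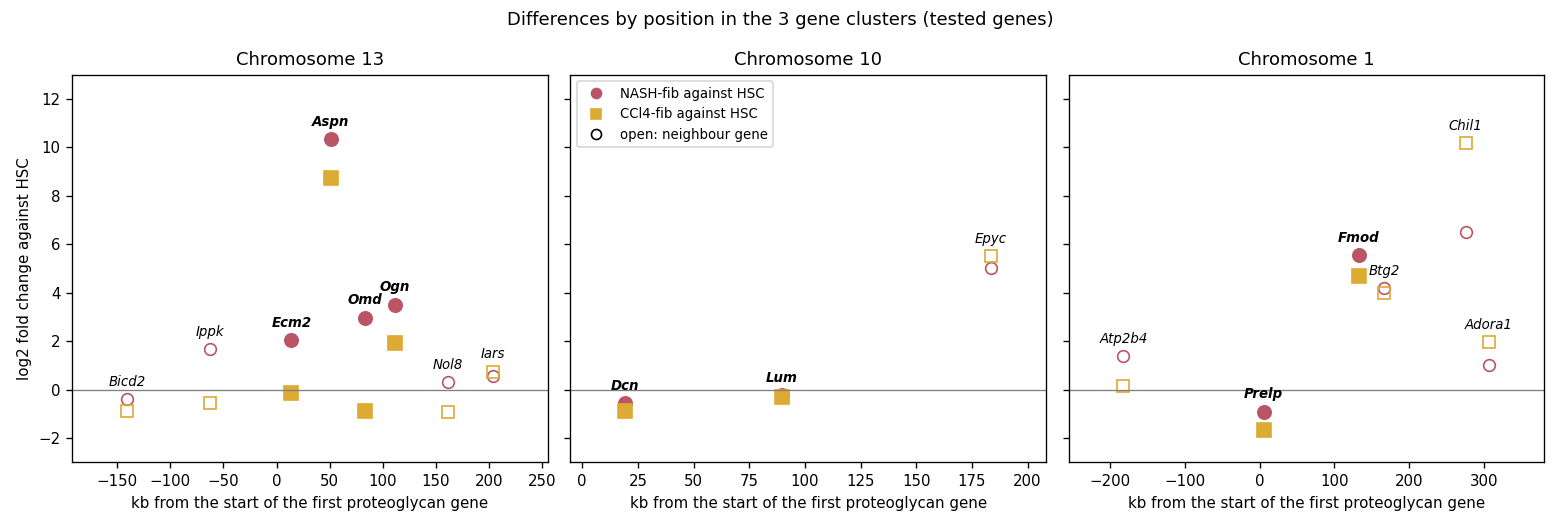
Log2 fold change against HSCs (vertical axis) by position in the clusters of chromosomes 13, 10 and 1 (horizontal axis, kb from the start of the first SLRP gene), for the tested members (filled) and other tested genes nearby, Epyc included (open), in NASH-fib (circles) and CCl4-fib (squares). On chromosome 13 the 4 SLRP genes lie above 2 in NASH-fib, and Aspn and Ogn do so or nearly so in CCl4-fib, while Ecm2 and Omd lie below 0.

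Profiles across the 9 libraries were also compared by the root mean square difference of log2(value + 1), each gene centred on its own mean. All genes share depth and GC trend of a library here, so likeness is a description. Dcn and Lum had over 3 reads per base in all 9 libraries and Bgn in 7. The part of the limit of 3 reads per position in their likeness was not tested. Among the members, Dcn and Lum, neighbours on chromosome 10, were most alike (0.24), followed by Bgn and Prelp on different chromosomes (0.84), Ecm2 and Omd (0.88) and Ecm2 and Ogn (0.93). Aspn was far from the other genes of its cluster (3.43 to 4.27). Over the 7 libraries without the 2 that stood apart, Dcn and Bgn were most alike (0.16), followed by Bgn and Lum (0.19), Dcn and Lum (0.26) and Fmod and Ogn (0.65), and Aspn was 2.55 to 3.57 from its cluster. Of all other tested genes, over the 9 libraries, the closest were Dpysl2 (0.08) and Rn45s (0.13) to Dcn, Tmem176b (0.14) and Rpl7a (0.16) to Bgn, and Rpl7 (0.09) and Etf1 (0.11) to Lum. Slc16a1 (0.28) and Serpinb6b (0.31) were closest to Ogn, Slc39a8 (0.36) and Ippk (0.39) to Ecm2, and Itga4 (0.63) and Sh2d1b1 (0.72) to Omd. Thy1 (0.27) and Msln (0.60) were closest to Fmod, 9530082P21Rik (0.33) and Qpct (0.34) to Prelp, and Aoc3 and Casq2 (both 1.04) to Aspn.

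Many SLRPs bind fibrillar collagens, whose genes were tested in the same fit. Of 9 tested collagen genes, 7 were higher and none lower in CCl4-fib against HSCs (median 3.07), and 4 were higher and 2 lower in NASH-fib (median 0.99). With the label prefix as a block, the NASH-fib counts were 1 and 0, and 1 was lower in place of 2 when HSC replicate 1, HSC replicate 2, NASH-fib replicate 2 or NASH-fib replicate 3 was absent. In NASH-fib against CCl4-fib none was higher and 7 were lower (median -1.60, against -0.11 over all genes). Col1a1 and Col1a2, the chains of type I collagen, fell by 1.25 and 1.39 on the log2 scale (adjusted p = 0.0462 and 0.0445), and Col24a1 and Col5a3 fell by 6.80 and 3.13 (adjusted p = 0.00477 and 0.0114). The count of 7 was the same without the 2 libraries that stood apart, 4 with edgeR or with the label prefix as a block, and 3 after the GC correction. With 1 library left out it was lowest, at 2, when CCl4-fib replicate 2 was absent, and was 3 when NASH-fib replicate 3 was absent. It was 4 when either other CCl4-fib library or NASH-fib replicate 2 was left out.

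SLRPs carry chondroitin, dermatan or keratan sulfate chains, and the genes of the enzymes that make them were counted in the same fit. Of all tested genes, 12.5% were called in either direction in NASH-fib and 27.8% in CCl4-fib against HSCs, and 10.6% between the fibroblast groups. Of 6 tested genes of the linker tetrasaccharide, none was called except Pxylp1, a xylose phosphatase, in CCl4-fib against HSCs (3.23, adjusted p = 0.0139). Of 15 chondroitin and dermatan sulfate genes, 1 was higher and 3 were lower in NASH-fib and 2 higher and 3 lower in CCl4-fib against HSCs, with Dse, the dermatan sulfate epimerase, lower in both (-1.94 and -1.97, adjusted p = 0.0169 and 0.0088). Chst12, a chondroitin sulfotransferase, was 4.65 higher in CCl4-fib than in HSCs and was the 1 gene lower in NASH-fib than in CCl4-fib (-2.98, adjusted p = 0.0134). When both libraries that stood apart were left out, 2 of the 15 were higher and 3 lower in NASH-fib and 4 higher and 3 lower in CCl4-fib against HSCs, and 3, Chst12, Chpf2 and Ust, were lower in NASH-fib than in CCl4-fib. Of 10 keratan sulfate genes, 2 were higher in NASH-fib and 3 higher and 1 lower in CCl4-fib against HSCs. Chst4, a GlcNAc sulfotransferase, was higher in both (4.60 and 4.26), and Chst2 was the 1 gene higher in NASH-fib than in CCl4-fib (2.27, adjusted p = 0.0208).

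Among 16 tested genes of SLRP ligands and receptors, 4 were higher and 2 lower in NASH-fib and 6 higher and 1 lower in CCl4-fib against HSCs. Over all tested genes the shares called higher and lower were 8.23% and 4.3% in NASH-fib and 16.2% and 11.7% in CCl4-fib. They were 4.97% and 5.66% in NASH-fib against CCl4-fib. Tgfb3 and Tgfb2, growth factors of the TGF-β family, were higher in both (4.85 and 4.46 in NASH-fib, 5.99 and 3.99 in CCl4-fib), and Kdr, a VEGF receptor of endothelial cells, was lower in both (-1.69 and -3.18). Between the fibroblast groups 2 were higher and 2 lower in NASH-fib, the lower ones being Cd14, a co-receptor of toll-like receptors (-3.39), and Lrp1, an endocytic receptor (-2.16). Of 11 proteases that can process SLRPs, 3 were higher in NASH-fib and 8 higher and 1 lower in CCl4-fib against HSCs. Bmp1, which removes the propeptide of biglycan, was higher in CCl4-fib than in HSCs (3.77, adjusted p = 0.000256) and lower in NASH-fib than in CCl4-fib (-3.03, adjusted p = 0.00837). Mmp13, a collagenase, was the 1 protease higher in NASH-fib than in CCl4-fib (7.17, adjusted p = 0.0106), and 3 were lower. There, 2 were higher and 5 lower without the 2 libraries.

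Markers of other cell types moved with the same comparisons, and their part in the results was not tested. All 9 mesothelial markers listed, led by Gpm6a and Msln, were higher in both fibroblast groups than in HSCs, with summed values of 783 to 1101 in HSCs, 17418 to 23684 in CCl4-fib and 28378 to 35072 in NASH-fib. Of 12 portal fibroblast markers, led by Dpt and Mfap4, 10 were higher in both, with sums of 1028 to 2371, 17197 to 21762 and 10466 to 17710. Of 11 smooth muscle markers, led by Myh11 and Tagln, 9 were higher in NASH-fib and 10 in CCl4-fib, with sums of 201 to 961, 8119 to 20756 and 7066 to 30683, and Casq2 was at 0 in every HSC library. Of 8 cholangiocyte markers tested, led by Spp1 and Krt19, 7 were higher in NASH-fib and 4 in CCl4-fib, with sums of 79.5 to 250, 3504 to 4788 and 6215 to 12034.

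Hepatocyte markers, led by Alb and Serpina1b, summed to 31199 to 66640 in HSCs, 2888 to 4116 in CCl4-fib and 10159 to 40919 in NASH-fib, and 9 of 15 were higher in NASH-fib than in CCl4-fib. Sinusoidal endothelial markers (Clec4g, Fcgr2b) summed to 8980 to 18362, 330 to 405 and 1404 to 4446, and 9 of 12 were higher in NASH-fib than in CCl4-fib. Macrophage markers (Lyz2, Clec4f) summed to 5273 to 18322, 477 to 955 and 3067 to 6856, with 5 of 12 higher in that comparison, and neutrophil markers (Ngp, S100a8) to 51.4 to 1088, 12.7 to 142 and 624 to 6570, with 4 of 8 higher. Of 13 quiescent stellate markers, led by Rgs5 and Lrat, 10 were lower in NASH-fib and 9 in CCl4-fib than in HSCs. Lrat was among both, and Rgs5 was lower in CCl4-fib alone. Rgs5 was also the 1 of these higher in NASH-fib than in CCl4-fib, a call lost without the 2 libraries (1.87, adjusted p = 0.0629). Of 13 activated fibroblast markers, led by Col3a1 and Col1a2, 7 were higher and Postn was lower in NASH-fib against HSCs. In CCl4-fib 10 were higher. Col3a1 was among the 10 and not the 7. Tnc, Col3a1, Col1a2 and Col1a1 were lower in NASH-fib than in CCl4-fib. Of 9 proliferation markers, led by Pcna and Ccna2, none was called in NASH-fib and 1 was higher in CCl4-fib against HSCs, and 3 were lower in NASH-fib than in CCl4-fib. Besides the Rgs5 call, the above counts that moved by 1.5 times or more without the 2 libraries were those of neutrophil and proliferation markers. Neutrophil markers higher in NASH-fib were 6 of 9 against CCl4-fib and 7 of 9 against HSCs, the latter 0 of 8 with all 9 libraries. Proliferation markers higher in CCl4-fib than in HSCs were 2 of 10.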

How the data were processed

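RNA of sorted fibroblasts and of HSCs was amplified with the SMARTer Ultra Low Input kit and sequenced as single-end reads by the authors, who aligned them with STAR to mm10 and counted them on RefSeq exons with HOMER (either strand, at most 3 reads per position, 1 entry per gene). Versions are not given in the sources used here. The deposited values are a signal per gene and library, the read count multiplied by 1 factor per library after a normalization for 10 libraries, of which 9 were analysed here. The value of a single read was found for each library, and 100% of the values up to 2000 reads were whole multiples of it (tolerance 0.1 read), so depth is known. The exact intervals of the Aspn read ratios and the floor of 3 reads cover counting error only, and amplified reads are not independent molecules. The intervals from limma rest on the spread between libraries. Because the values are not counts, limma 3.58.1 (R 4.3.3) was used on log2(value + 1), which understates the change of low genes, in 1 fit over the 3 groups with a trended prior, for genes kept by filterByExpr of edgeR 4.0.16 (minimum count 10 on the recovered reads), with Benjamini-Hochberg adjustment over the 13651 genes kept. An exact two-sided permutation test of 3 against 3 libraries cannot give a p under 0.1, so none is given. Libraries are pools of mice, and p-values measure the spread between pools.

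The members, gene lists and tests were chosen with earlier results of these data known. Genes named are the members, Col1a1, Col1a2, Acta2, Mc4r, the other SLRP genes, cluster neighbours (within 200 kb), the 2 closest profiles of each member, the 2 called genes of largest change per list, comparison and direction, and the 2 most abundant markers per cell type. Dse, Gm15851, Chpf2 and Ust were named after their values or positions were seen. GC content came from the mm10 exons for 99.4% of tested genes, and promoters from RefSeq on GRCm38.p6. The fit was tested on simulated data. Alternatives were edgeR, DESeq2 1.42.0, upper-quartile scaling, other filters, pseudocounts and blocks, the 2 groups alone and each library left out. Leaving out HSC replicate 2 and NASH-fib replicate 1 together and a GC correction by loess were added after seeing the data.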

Additional observations from a re-analysis of the deposited data

How the results depend on the processing

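Of 21 alternatives, the count of called members stayed within 1.5 times the main count in 20 for NASH-fib against HSCs (main count 5), in 21 for CCl4-fib against HSCs (3) and in 16 for NASH-fib against CCl4-fib (3). With an average RPKM over 100, the filter named by the study, the counts were 2 and 1 in the first and last comparison, because fewer members were tested. Without HSC replicate 2 and NASH-fib replicate 1, the last count was 5, and after the GC correction it was 2. Leaving out 1 library at a time gave 4 to 5, 2 to 4 and 1 to 3 called, and in the last comparison Omd was the 1 gene left when CCl4-fib replicate 2, NASH-fib replicate 3 or CCl4-fib replicate 3 was absent. With the replicate number as a block the counts were 5, 3 and 2. The deviations of the 9 same-numbered pairs correlated at -0.473 to 0.514 and those of the 18 other pairs at -0.588 to 0.645. With 3 libraries per group, and with HSC replicate 2 and NASH-fib replicate 1 apart, these ranges cannot decide whether the numbers pair the libraries.

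Of the members' single differences, 510 kept direction and side of the threshold, 17 lost and 11 gained a call, and 20 changed sign, all of them of differences that were not called. Bgn in NASH-fib against HSCs was 0.05 without HSC replicate 1, 0.11 without HSC replicate 3 and 0.38 without NASH-fib replicate 1, and leaving out single libraries gave -0.97 to 0.38. Bgn in CCl4-fib against HSCs was -0.16 with edgeR, -0.13 with DESeq2, -0.49 without HSC replicate 2 (NASH-fib replicate 1 kept or not) and -0.32 after the GC correction, and single libraries left out gave -0.49 to 0.59. Bgn in NASH-fib against CCl4-fib was 0.17 without NASH-fib replicate 1 (HSC replicate 2 kept or not), in a range of -0.79 to 0.17 over single libraries left out. Ecm2 in CCl4-fib against HSCs was 0.17 with the label prefix as a block, 0.034 without HSC replicate 2 (NASH-fib replicate 1 kept or not), 0.21 when CCl4-fib replicate 3 was absent and 0.40 after the GC correction, in a range of -0.56 to 0.21 over single libraries left out. Lum was 0.13 in CCl4-fib against HSCs after the GC correction, and in NASH-fib against CCl4-fib -0.15 without NASH-fib replicate 1 (HSC replicate 2 kept or not) and -0.54 after the GC correction. Dcn in NASH-fib against CCl4-fib was -0.27 after the GC correction. The cause of these changes was not tested. The median of all genes in NASH-fib against CCl4-fib was -0.11 in limma, and 0.14 in edgeR and 0.12 in DESeq2 on the recovered reads, which differ from it in input, model and scaling at once. Depth limits Aspn and Kera in HSCs, with at most 9 and 0 reads per library.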
